A study of Mus musculus with 24 samples.

Results

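4T1 is a mouse mammary carcinoma line that spreads to distant organs and is described in the labels as highly metastatic. The microRNAs (miRNAs) of 4T1 cells in a rigid microenvironment were compared with those of 4T1 cells in a compliant one, on the 8 arrays of 24 whose titles begin with 4T1. The cells had grown for 6 days in 3D organotypic culture. The 4 rigid arrays comprised 2 of cells given TGF-beta and 2 of cells in which the type I receptor for TGF-beta was blocked by an inhibitor, a state that the labels call basal, and the 4 compliant arrays were divided the same way. No culture was left without both agents, so each effect of rigidity was measured either with the pathway stimulated or with its receptor blocked. The 2 arrays of each combination are named set 1 and set 2. Neither the stiffness of the 2 microenvironments nor the material used is given in the sources used here, and 4T1 is 1 established line. The other 16 arrays hold 2 sister lines grown in the same 4 conditions, 67NR, described as nonmetastatic, and 4TO7, described as systemically invasive.

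Cells sense the stiffness of the matrix around them through integrins and the contractile cytoskeleton, and breast tumours are stiffer than the normal gland. A miRNA is a short RNA that guides an Argonaute protein to messenger RNAs and lowers their translation and stability. Which messengers it binds depends mainly on its seed, bases 2 to 8 from the 5′ end, so miRNAs with the same seed share many targets, and several such relatives are often encoded side by side and transcribed together.

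Of 558 mouse miRNA probes, 334 to 357 were detected above background on each 4T1 array (detection p under 0.05), and 365 were tested. Replicate arrays correlated at r = 0.995 to 0.998 across the tested probes. The labels do not say whether set 1 and set 2 were separate cultures, so p-values measure only the spread between arrays of a group. That spread was estimated for each probe over all 24 arrays, including those of the sister lines. The small number of arrays limits precision. Of the 7 epithelial miRNAs on the array, 6 were detected on all 8 arrays (miR-200a, miR-200b, miR-200c, miR-141, miR-429 and miR-203), and miR-205 was detected on none. Neither of the 2 endothelial probes was detected, and of 6 blood probes miR-451 was the 1 detected. Probes of other lists were detected on all 8 arrays too. They were 4 of 13 embryonic stem cell probes, 3 of 7 neural and liver probes and 1 of 5 muscle probes (miR-208b). Of 6 fibroblast and mesenchymal probes 5 were detected on all 8 arrays and miR-143 on none. Their summed linear intensity was 7484 to 7902 on the compliant and 7893 to 9311 on the rigid arrays. Most of this sum came from 1 probe, miR-214, at log2 12.66 to 13.01, which is described with the inhibitor results. The median log2 difference between rigid and compliant over the 6 probes was -0.002, with 3 above 0. Whether any such cells were present was not tested.

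The largest change with rigidity was a loss of miR-146a and miR-146b, which are made from separate genes on chromosomes 11 and 19. Both dampen NF-kappa-B signalling by repressing the signalling proteins Irak1 and Traf6. MiR-149, whose gene lies within the span of the glypican gene Gpc1, fell too, as did the neighbours miR-221 and miR-222, which repress the cell cycle inhibitor p27. MiR-16 and miR-195, which share a seed and repress cyclins, were higher on rigid arrays, together with miR-706, miR-805 and the passenger strand miR-218-2*. No change in 4T1 reached 2-fold. In all, 27 of the 365 tested miRNAs (7.4%) passed an adjusted p under 0.05 in limma, 13 higher (3.56%) and 14 lower (3.84%), and 83 had an unadjusted p under 0.05.

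The mature sequences of the miRNAs that changed most are shown here with the seed in capitals, from RefSeq on GRCm38.p6. The relatives that share a seed are set together, because not all members of a family passed the test.
miR-146a: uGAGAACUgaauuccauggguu
miR-146b: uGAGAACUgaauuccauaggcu
miR-149: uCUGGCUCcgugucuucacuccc
miR-16: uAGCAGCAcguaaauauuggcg
miR-195: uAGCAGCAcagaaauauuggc
miR-15a: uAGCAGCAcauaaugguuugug
miR-15b: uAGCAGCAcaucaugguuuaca
miR-497: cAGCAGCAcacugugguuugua
miR-221: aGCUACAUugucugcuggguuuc
miR-222: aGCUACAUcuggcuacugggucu
miR-125a-5p: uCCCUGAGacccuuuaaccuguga
miR-125b-5p: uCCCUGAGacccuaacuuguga
miR-99a: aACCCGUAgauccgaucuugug
miR-100: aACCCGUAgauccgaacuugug
miR-99b: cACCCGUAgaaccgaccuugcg
miR-181a: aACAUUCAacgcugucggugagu
miR-706: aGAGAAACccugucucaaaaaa
miR-218-2*: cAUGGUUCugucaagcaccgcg
miR-431: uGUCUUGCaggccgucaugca
miR-484: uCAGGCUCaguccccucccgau
miR-483: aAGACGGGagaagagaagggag
miR-30c-2*: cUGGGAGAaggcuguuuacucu

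Mature miR-146a is read from chr11:43374435-43374456 on the minus strand, and miR-146b from chr19:46342790-46342811 on the plus strand. MiR-149 lies at chr1:92850381-92850403 on the plus strand. MiR-195 is encoded at chr11:70235062-70235082 on the plus strand, and miR-16 by 2 genes, 1 within the span of Smc4 on chromosome 3 and 1 within that of the noncoding gene Dleu2 on chromosome 14. MiR-221 (chrX:19146307-19146329) and miR-222 (chrX:19146901-19146923) are both on the minus strand. The mature miR-146a and miR-146b sequences differ by 2 edits (substitutions, insertions or deletions), miR-16 and miR-195 by 3, miR-125a-5p and miR-125b-5p by 3, miR-221 and miR-222 by 5, and miR-99a and miR-100 by 1. An array probe can bind such a close relative, and how far it did so was not tested.

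MiR-146a gave normalised log2 intensities of 7.86 and 7.89 on the compliant inhibitor arrays (set 1, then set 2) and 7.30 and 7.22 on the rigid ones. With TGF-beta the values were 9.42 and 9.24 on compliant and 8.34 and 8.35 on rigid arrays. Within each treatment both rigid arrays lay below both compliant arrays, whereas over all 8 the groups overlapped, since the TGF-beta arrays were the higher ones on either microenvironment. The difference between rigid and compliant, averaged over the treatments, was -0.80 ± 0.06 (SE, 4 arrays against 4), or 0.574 of the compliant level (adjusted p = 5.7e-08). MiR-146b read 6.82 and 6.88 on compliant and 6.40 and 6.42 on rigid arrays with the inhibitor. With TGF-beta it read 8.11 and 8.02 on compliant and 7.17 and 7.20 on rigid arrays. The pattern was that of miR-146a, with rigid arrays lower within each treatment and a fall of 0.66 ± 0.05, to 0.633 of the compliant level (adjusted p = 7.88e-08). The other strand of its hairpin, miR-146b*, differed by -0.03 ± 0.05 and did not pass (adjusted p = 0.854).

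MiR-149, reported in other work as a suppressor of tumour cell invasion, had the smallest p of all tested miRNAs in the reported fit. Its values were 7.76 and 7.74 on compliant and 7.34 and 7.33 on rigid inhibitor arrays, then 8.37 and 8.28 on compliant and 7.79 and 7.74 on rigid TGF-beta arrays. The groups were apart within each treatment. The fall was 0.49 ± 0.02, to 0.712 of the compliant level (adjusted p = 1.17e-09). MiR-146a, miR-146b and miR-149 shared a further feature, since each had higher values on the TGF-beta arrays. TGF-beta minus inhibitor was 1.45 on compliant and 1.09 on rigid arrays for miR-146a, 1.22 and 0.78 for miR-146b, and 0.58 and 0.43 for miR-149. The highest level of each of these 3 miRNAs was thus found in compliant culture with TGF-beta and the lowest in rigid culture with the inhibitor.

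**Figure D1:**
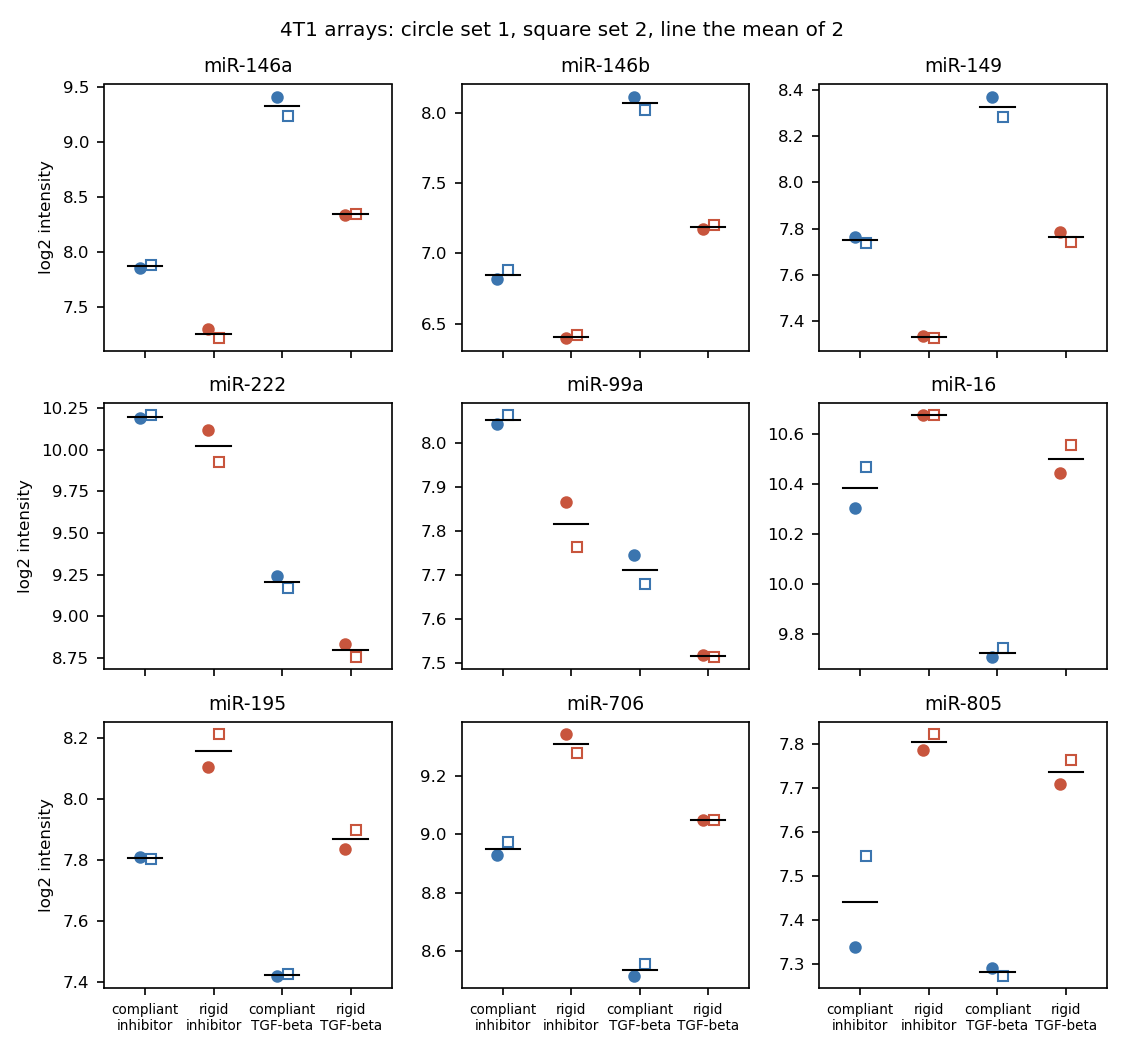
Normalised log2 intensity (vertical axis) of 9 miRNAs on each of the 8 4T1 arrays, grouped by microenvironment and treatment (horizontal axis); blue marks compliant and red rigid culture, circles set 1, open squares set 2, and the black line is the mean of the 2 arrays. In every panel the rigid arrays lie on 1 side of the compliant arrays of the same treatment, with miR-146a at 9.42 and 9.24 on compliant against 8.34 and 8.35 on rigid TGF-beta arrays.

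Among the remaining falls, miR-222 read 10.19 and 10.21 on compliant and 10.12 and 9.93 on rigid inhibitor arrays, and 9.24 and 9.17 on compliant and 8.83 and 8.75 on rigid TGF-beta arrays. It fell by 0.29 ± 0.05 (adjusted p = 0.000972), with the groups apart within each treatment. Its neighbour miR-221 read 10.25 and 10.67, then 10.25 and 10.17, with the inhibitor, so that set 1 did not differ there, and 9.53 and 9.32, then 9.06 and 9.06, with TGF-beta. The fall of miR-221 was 0.31 ± 0.09 (adjusted p = 0.0453), and the call was lost when any array other than compliant inhibitor set 1 was left out (adjusted p up to 0.136). Without compliant inhibitor set 2 the value was -0.20. Both members of this pair were lower with TGF-beta than with the inhibitor (by -1.03 on compliant and -1.15 on rigid for miR-221, -0.99 and -1.23 for miR-222), the same direction as with rigidity.

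MiR-99a, which represses the growth kinase mTOR, read 8.04 and 8.06 on compliant and 7.87 and 7.76 on rigid inhibitor arrays, and 7.74 and 7.68 against 7.52 and 7.51 with TGF-beta. The groups did not overlap within either treatment, and miR-99a fell by 0.22 ± 0.04 (adjusted p = 0.00128). MiR-484 fell by 0.26 ± 0.05 (adjusted p = 0.00723), from 9.40 to 9.74 over the 4 compliant arrays to 9.28 to 9.37 over the 4 rigid arrays, with no overlap over all 8. MiR-125a-5p and miR-125b-5p, the mammalian relatives of the worm timing RNA lin-4, fell by 0.22 ± 0.05 (adjusted p = 0.0138) and 0.25 ± 0.06 (adjusted p = 0.0298). MiR-125b-5p read 13.97 on both compliant and 13.69 on both rigid inhibitor arrays, and 13.40 and 13.69 on compliant against 13.40 and 13.27 on rigid TGF-beta arrays, so its groups met at 13.40 with TGF-beta. At this top end of the intensity range quantile normalisation gives few distinct values, and the fall was 0.45, 0.44 and 0.45 under median scaling, under median scaling on the probes detected throughout (those detected on all 24 arrays) and in the authors' value table. The call of miR-125b-5p was lost without any of 6 of the 8 arrays, the exceptions being set 1 of the compliant and of the rigid TGF-beta arrays (adjusted p up to 0.131), and that of miR-125a-5p without compliant inhibitor set 2, rigid inhibitor set 1 or compliant TGF-beta set 2 (up to 0.0714). MiR-181a, whose TGF-beta arrays stood 0.98 above the inhibitor arrays on compliant and 0.92 above on rigid culture, fell with rigidity by 0.17 ± 0.04 (adjusted p = 0.0105), a call lost without compliant inhibitor set 2 or compliant TGF-beta set 2 (up to 0.0584).

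The 4 smallest falls were those of miR-125b-3p, miR-9, miR-148a and miR-324-5p, at -0.16 ± 0.04, -0.16 ± 0.05, -0.14 ± 0.04 and -0.12 ± 0.03 (adjusted p = 0.0292, 0.0453, 0.0404 and 0.0138). The call of miR-324-5p was lost without set 2 of the compliant or of the rigid inhibitor arrays, those of miR-125b-3p and miR-9 without any of 6 arrays, and that of miR-148a without any of 7. MiR-125b-3p and miR-324-5p also missed the threshold under median scaling (adjusted p = 0.0846 and 0.0569) and with the median of probes detected throughout (0.088 and 0.13), and miR-148a under the latter (0.0692). MiR-148a was detected on none of the 8 arrays, so its difference lies below background and no fold is given. MiR-125b-3p differed by -0.01 with the inhibitor and by -0.32 with TGF-beta. The call of miR-9 was not kept under median scaling (-0.10), with the median of probes detected throughout (-0.09) or in the authors' value table (-0.10).

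MiR-16 read 10.30 and 10.47 on compliant and 10.67 on both rigid arrays with the inhibitor, and 9.71 and 9.74 on compliant and 10.45 and 10.56 on rigid arrays with TGF-beta. The rigid arrays stood above the compliant ones in each treatment, by 0.29 with the inhibitor and 0.78 with TGF-beta (adjusted p of the difference 0.334), and the mean rise was 0.53 ± 0.09, or 1.45-fold (adjusted p = 0.000895). MiR-195 read 7.81 and 7.80 on compliant and 8.11 and 8.21 on rigid inhibitor arrays, and 7.42 and 7.43 against 7.84 and 7.90 with TGF-beta. No rigid array fell below a compliant one over all 8, and the rise was 0.40 ± 0.08, or 1.32-fold (adjusted p = 0.00359). Both miRNAs were lower with TGF-beta than with the inhibitor on compliant arrays (-0.66 for miR-16 and -0.38 for miR-195) and on rigid arrays (-0.17 and -0.29).

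MiR-706, whose gene lies within the span of the kinase gene Wnk1, read 8.93 and 8.97 on compliant and 9.34 and 9.28 on rigid inhibitor arrays. With TGF-beta it read 8.52 and 8.56 on compliant and 9.05 on both rigid arrays, again with no overlap over all 8. It rose by 0.44 ± 0.04, or 1.35-fold (adjusted p = 4.01e-06). MiR-805 was equally apart, with 7.34 and 7.54 on compliant and 7.79 and 7.82 on rigid inhibitor arrays, 7.29 and 7.27 on compliant and 7.71 and 7.76 on rigid TGF-beta arrays, and a rise of 0.41 ± 0.05, or 1.33-fold (adjusted p = 2.37e-05). No mature sequence was found for miR-805. Whether the probes named miR-706 and miR-805 measure true miRNAs was not tested.

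MiR-218-2*, a strand of a hairpin within the span of the guidance gene Slit3, was apart with the inhibitor, where it read 8.25 and 8.35 on compliant and 9.12 and 9.02 on rigid arrays. With TGF-beta the compliant values of 8.42 and 8.86 overlapped the rigid values of 8.73 and 8.96. The mean rise was 0.49 ± 0.09, or 1.4-fold (adjusted p = 0.00158). MiR-301b, of the miR-130 family, rose by 0.21 ± 0.03 (adjusted p = 0.00103), from 7.18 and 7.30 to 7.57 and 7.56 with the inhibitor and from 7.13 and 7.16 to 7.22 and 7.26 with TGF-beta, the groups being apart in each. MiR-483, within the span of the growth factor gene Igf2, rose by 0.25 ± 0.06 (adjusted p = 0.0138, lost at 0.0535 without compliant inhibitor set 2 and at 0.0665 to 0.0737 under the other 3 scalings). MiR-30c-2* and miR-696 rose by 0.18 ± 0.05 each (adjusted p = 0.0394 and 0.0341), and each call was lost without any of 7 of the 8 arrays, the exceptions being rigid TGF-beta set 1 for miR-30c-2* and compliant TGF-beta set 1 for miR-696. Without rigid TGF-beta set 2 the value of miR-30c-2* was 0.12. MiR-30c-2* was lost too (adjusted p = 0.0665 under median scaling, 0.0732 in the authors' value table), and miR-696 with the median of probes detected throughout (0.0692). MiR-455 rose by 0.16 ± 0.04 (adjusted p = 0.019, lost without rigid inhibitor set 1, compliant TGF-beta set 2 or rigid TGF-beta set 1, and at 0.0821 to 0.106 under the other 3 scalings).

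A further 3 rises came from the imprinted Dlk1-Dio3 region of chromosome 12, where a long cluster of miRNAs is expressed from the maternal chromosome. MiR-431, within the span of the retrotransposon-derived gene Rtl1, read 7.65 and 7.46 on compliant and 8.38 and 7.90 on rigid inhibitor arrays, and 7.53 and 7.48 against 7.61 and 7.82 with TGF-beta. It was detected on 2 of the 4 compliant and on all 4 rigid arrays, and differed by 0.40 ± 0.11 (adjusted p = 0.0342). Rigid inhibitor set 1 stood highest, and the call was lost without that array, without compliant inhibitor set 2, or without compliant TGF-beta set 1, compliant TGF-beta set 2 or rigid TGF-beta set 2 (adjusted p up to 0.162). Its neighbours miR-337-5p and miR-540-3p, whose genes start within 10 kb, rose by 0.14 ± 0.04 (adjusted p = 0.0292) and 0.14 ± 0.03 (adjusted p = 0.0206). Those calls were lost without any of 6 arrays (all but compliant TGF-beta set 1 and rigid TGF-beta set 1) and of 4 arrays (compliant inhibitor set 2, rigid inhibitor set 1, compliant TGF-beta set 2 and rigid TGF-beta set 1), and both were lost under the other 3 scalings (adjusted p = 0.064 to 0.0808). Other neighbours within 10 kb were at -0.19 ± 0.07 (miR-665, adjusted p = 0.102), 0.03 ± 0.03 (miR-434-5p), -0.01 ± 0.09 (miR-127*) and -0.06 ± 0.07 (miR-433*), and did not pass. Of the 30 tested miRNAs of this cluster 3 rose and none fell, beside 13 higher (3.56%) and 14 lower (3.84%) of all 365. The median of the cluster was 0.03 beside 0.01 for all tested miRNAs. Under each of the other 3 scalings 1 rose.

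Of the families that share a seed, some passed only in part. Both members of the miR-146 pair and both of the miR-221 pair fell. In the miR-15 group miR-16 and miR-195 rose, while miR-15a (0.01 ± 0.07), miR-497 (0.00 ± 0.05) and miR-322 (0.04 ± 0.05) did not pass, and miR-15b stood between them at 0.20 ± 0.07 (adjusted p = 0.0925). MiR-15a and miR-15b are encoded beside the 2 miR-16 genes, and miR-497 beside miR-195, all within 10 kb. MiR-99a fell, whereas its relatives miR-100, 1 edit away, and miR-99b were at -0.07 ± 0.04 and 0.06 ± 0.05 (adjusted p = 0.426 and 0.546), and let-7c, encoded within 10 kb of miR-99a, was at -0.07 ± 0.06 (adjusted p = 0.501). The differences between these relatives were not tested.

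In the miR-125 family miR-351, with the same seed as the 2 members that fell, was at 0.00 ± 0.07. The genomic neighbours of miR-125a-5p, miR-99b and let-7e, were at 0.06 and -0.05, and the opposite strand miR-125a-3p at 0.11 ± 0.06 (adjusted p = 0.266). MiR-181b, encoded beside miR-181a at both of its genes, was at -0.06 ± 0.04, and miR-181c and miR-181d at -0.09 ± 0.04 and 0.00 ± 0.04, none of which passed. In the miR-130 family miR-301b rose, and miR-301a (0.14 ± 0.05), miR-130b (0.07 ± 0.05) and miR-130a (0.03 ± 0.07) did not pass. Opposite strands of miR-431 and miR-324-5p were at 0.03 and -0.02 and did not pass.

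**Figure D2:**
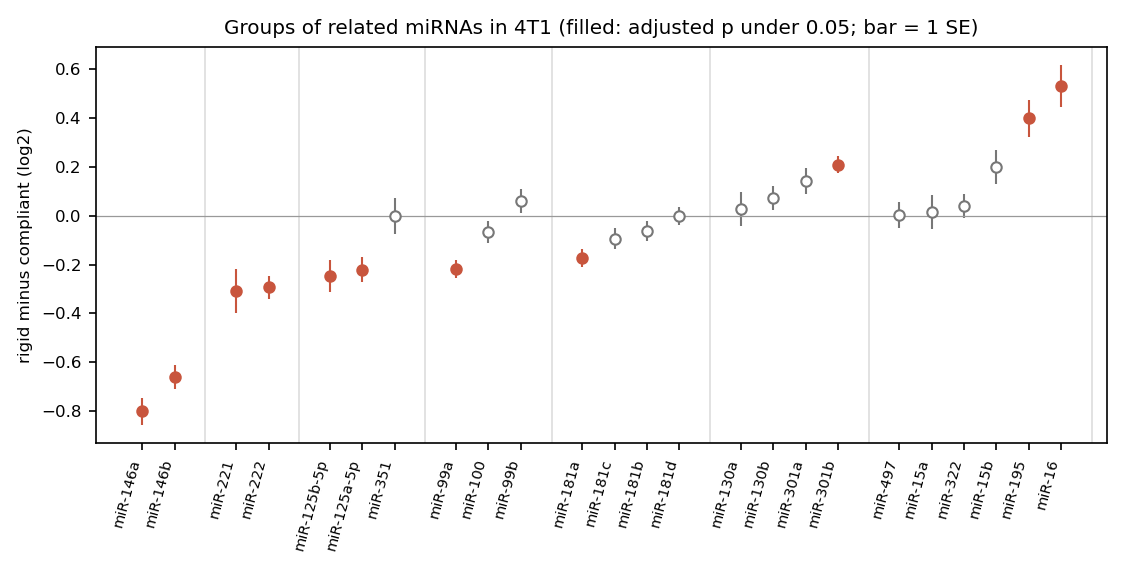
Difference between rigid and compliant 4T1 arrays (vertical axis, log2, mean over both treatments, bars 1 SE) for miRNAs of 7 families, separated by vertical lines; filled red points passed an adjusted p under 0.05. Both members passed in the miR-146 and miR-221 groups, 2 of 6 in the miR-15 group, 2 of 3 in the miR-125 group and 1 member each in the miR-99, miR-181 and miR-130 groups.

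With the inhibitor alone, 2 rigid against 2 compliant arrays, 14 miRNAs passed (3.84%), 9 higher and 5 lower, and 61 had an unadjusted p under 0.05. The split was 12 and 4 under median scaling, and 4 and 4 with the median of probes detected throughout. MiR-218-2* had the largest rise, 0.77 ± 0.12 (adjusted p = 0.000937), followed by miR-431 (0.59), miR-805 (0.36), miR-706 (0.36), miR-301b (0.32), miR-483 (0.30), miR-214 (0.28), miR-20b (0.23) and miR-337-5p (0.20). MiR-214, a mesenchymal miRNA encoded within the Dnm3 antisense transcript, read 12.71 and 12.66 on compliant and 12.92 and 13.01 on rigid inhibitor arrays, and 12.71, 12.71, 12.71 and 12.78 on the TGF-beta arrays. Its call did not hold under the other 3 scalings (0.20 to 0.24, adjusted p = 0.35 to 0.586). The falls were those of miR-146a (0.62 ± 0.08), miR-146b (0.44 ± 0.07), miR-149 (0.42 ± 0.04), miR-484 (0.33 ± 0.08) and miR-99a (0.24 ± 0.05). Without compliant inhibitor set 1, rigid inhibitor set 1 or rigid inhibitor set 2 the count was 7, 8 and 7. MiR-146a, miR-146b, miR-149, miR-218-2*, miR-301b and miR-706 passed without each array in turn. The other 8 calls were all lost without compliant inhibitor set 1, among other arrays. MiR-431 rested on rigid inhibitor set 1, without which it was at 0.35 (adjusted p = 0.405), and under median scaling miR-484 was at -0.21 (adjusted p = 0.194), with 0.0767 and 0.0776 under the other 2. MiR-483, miR-20b and miR-337-5p were lost with the median of probes detected throughout (adjusted p = 0.125, 0.125 and 0.209) and with the authors' own values (0.108, 0.102 and 0.115), and miR-805 under the former (0.0618).

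With TGF-beta, 16 miRNAs passed (4.38%), 5 higher and 11 lower, and 53 had an unadjusted p under 0.05. The split was 6 and 8 with the median of probes detected throughout. MiR-146a fell by 0.98 ± 0.08, close to 2-fold, and miR-146b by 0.88 ± 0.07 (adjusted p = 2.71e-07 and 2.69e-07). MiR-149 (0.56), miR-665 (0.41), miR-222 (0.41), miR-125b-3p (0.32), miR-182 (0.30), miR-500 (0.24), miR-181a (0.20) and miR-99a (0.20) fell too. MiR-128 passed at -0.21 but was detected on none of these 4 arrays, so no fold is given. MiR-182, of the sensory and epithelial miR-183 cluster, read 10.28 and 10.21 on compliant and 9.96 and 9.93 on rigid TGF-beta arrays, and between 9.74 and 9.79 on the 4 inhibitor arrays.

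The rises with TGF-beta were those of miR-16 (0.78 ± 0.12), miR-466f-3p (0.58 ± 0.15), miR-706 (0.51 ± 0.06), miR-805 (0.46 ± 0.07) and miR-195 (0.44 ± 0.11). MiR-466f-3p, of the rodent cluster in an intron of Sfmbt2, read 10.78 and 11.02 on compliant and 11.30 and 11.66 on rigid TGF-beta arrays, while the inhibitor values of 11.16 and 11.48 overlapped 11.48 and 11.30. Without compliant TGF-beta set 1, compliant TGF-beta set 2 or rigid TGF-beta set 2 the count of 16 became 10, 7 and 10. MiR-146a, miR-146b, miR-149, miR-222, miR-16, miR-706 and miR-805 passed without each array in turn. The other 9 calls were all lost without compliant TGF-beta set 2. That was the only such array for miR-125b-3p (adjusted p = 0.057), and the rest were lost without further arrays too. MiR-99a was at -0.12 with the median of probes detected throughout (adjusted p = 0.576, and 0.166 and 0.227 under the other 2 scalings). MiR-665 was at -0.27 without rigid TGF-beta set 1 (adjusted p = 0.201). MiR-500 was lost under the other 3 scalings (adjusted p = 0.0867 to 0.199), and miR-181a with the median of probes detected throughout (0.0643).

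In all, 6 miRNAs passed in each treatment, all in the same direction in both, namely miR-146a, miR-146b, miR-149 and miR-99a, which fell, and miR-706 and miR-805, which rose. They are 6 of the 14 miRNAs called with the inhibitor and 6 of the 16 called with TGF-beta. No array was used for both treatments, although 1 estimate of each miRNA's spread served the tests of both. No miRNA passed the test of the difference between the treatments (0% of 365, limma), and 29 had an unadjusted p under 0.05. The smallest p was that of miR-146b, whose fall was larger with TGF-beta by 0.44 ± 0.10 (95% interval -0.65 to -0.23, adjusted p = 0.14). The next by p were miR-125b-3p (-0.30), miR-466c-5p (0.25), miR-155 (-0.35), miR-20b (-0.29) and miR-146a (-0.37, 95% interval -0.61 to -0.13), each at an adjusted p of 0.226. Under median scaling miR-146b (-0.48, adjusted p = 0.0245), miR-146a (-0.43) and miR-665 (-0.55, both 0.0358) passed.

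MiR-155, an inflammation-induced miRNA, read 7.37 and 7.62 on compliant and 7.77 and 7.76 on rigid inhibitor arrays, and 7.88 and 7.82 against 7.84 and 7.69 with TGF-beta. Without compliant inhibitor set 2 its treatment difference passed (-0.48, adjusted p = 0.0335), together with those of miR-125b-3p (-0.41) and the probe shared by miR-23a and miR-23b (-0.65). Leaving out compliant TGF-beta set 1 called miR-218-2* (-0.79, adjusted p = 0.0442), and leaving out rigid TGF-beta set 2 called miR-20b (-0.42, adjusted p = 0.00393). The miRNAs called with an array left out were singled out after their values were seen.

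**Figure D3:**
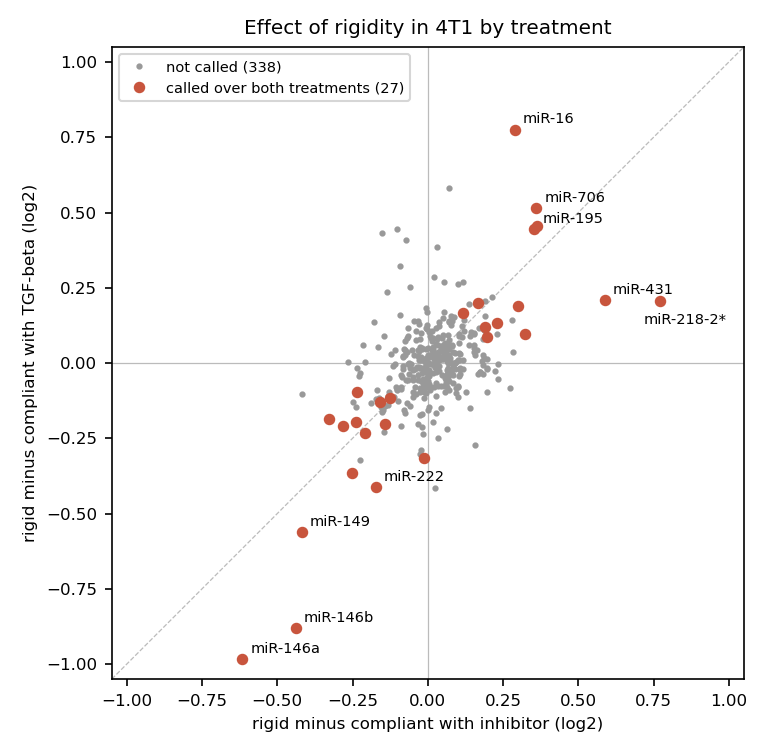
Difference between rigid and compliant 4T1 arrays with the inhibitor (horizontal axis, log2) and with TGF-beta (vertical axis, log2), 1 point for each of the 365 tested miRNAs; the 27 called over both treatments are red, and the dashed line marks equal effects. MiR-146a (-0.62 and -0.98) and miR-146b lie below the line at the lower left, miR-16 (0.29 and 0.78) above it, and miR-218-2* (0.77 and 0.20) and miR-431 to its right.

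For the other gene lists the count of members that passed and the median over the tested members are given, beside 7.4% and 0.01 for all 365. In the miR-200 and epithelial list, markers of the epithelial state, 0 of 7 passed, with a median of 0.05 and 6 of 7 above 0 (miR-205 undetected). MiR-200b, a repressor of the mesenchymal factors Zeb1 and Zeb2, read 7.29 and 7.35 on compliant and 7.52 and 7.43 on rigid inhibitor arrays, and 7.37 and 7.20 against 7.33 and 7.44 with TGF-beta, a difference of 0.13 ± 0.04 (adjusted p = 0.0641). Of the 13 miRNAs reported elsewhere as responsive to matrix stiffness, miR-301b rose, miR-9 fell and the median was 0.01, but between -0.04 and -0.03 under the other 3 scalings. In that list miR-29c was at -0.19 ± 0.07 (adjusted p = 0.112), and miR-21 was at 0.00 as quantile normalisation gave it 1 value on all 4 arrays of a treatment. Under median scaling miR-21 was at -0.12 (adjusted p = 0.76).

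In the list of hypoxia, p53 and NF-kappa-B induced miRNAs, miR-146a and miR-146b fell of 8 tested (median -0.06). MiR-210, the main hypoxia-induced miRNA, read 9.51 and 9.60 on compliant and 9.49 and 9.17 on rigid inhibitor arrays, and 8.41 and 8.34 against 8.11 and 7.997 with TGF-beta. Its difference of -0.27 ± 0.09 did not pass (adjusted p = 0.0641), whereas it passed under median scaling (-0.29, adjusted p = 0.0242), with the median of probes detected throughout (-0.28, adjusted p = 0.0297) and in the authors' value table (-0.30, adjusted p = 0.0123). In the 9 miRNAs of the miR-221 pair and the miR-15 seed group 2 rose and 2 fell (median 0.03), and in the miR-181 family 1 of 4 fell (median -0.08).

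No member passed in the let-7 family (9 tested, median -0.05), the miR-17 clusters (12 tested, -0.03), the miR-34 family (7 tested, 0.05), the miR-30 family (5 tested, -0.09), the miR-29 family (3 tested, -0.08), the miR-183 cluster (3 tested, -0.14) or the Sfmbt2 cluster (14 tested, 0.06). Within the authors' value table a member fell in each of the miR-29, miR-30 and miR-183 groups, namely miR-29c (-0.20), miR-30d (-0.16) and miR-182 (-0.19), which also fell under median scaling (-0.18). In the Sfmbt2 cluster 1 member rose under each of the other 3 scalings. The 1 tested probe of the miR-23 clusters was at 0.05 and at -0.15 under median scaling. Of 64 passenger strands, the less abundant strand of a hairpin in older naming, miR-218-2* and miR-30c-2* rose and none fell (median 0.01). Among the markers of other cell types no tested probe passed, with medians of 0.00 over 6 fibroblast and mesenchymal, 0.05 over 1 blood, 0.00 over 2 muscle, 0.03 over 5 neural and liver and 0.04 over 5 embryonic stem cell probes.

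The 8 arrays lay on 4 slides. Slide 2 held 1 compliant and 1 rigid inhibitor array, and slide 3 held 2 compliant and 1 rigid TGF-beta array, so the comparison could be read within a slide in each treatment. Of the 27 called miRNAs 26 had the sign of their overall difference on both slides, the exception being miR-125b-3p (0.09 on slide 2 and -0.31 on slide 3). Over all tested miRNAs the share was 48.5%, and the slides hold arrays that also made the calls, so the count of 26 is a description. On slides 2 and 3 miR-146a was at -0.64 and -0.99, miR-146b at -0.39 and -0.89, and miR-149 at -0.44 and -0.54. MiR-16 was at 0.37 and 0.72 and miR-706 at 0.35 and 0.51, and miR-195 at 0.40 and 0.41. Smaller within-slide values included those of miR-221 (-0.08 and -0.36), miR-125a-5p (-0.10 and -0.26) and miR-218-2* (0.77 and 0.09). Others were those of miR-301b (0.38 and 0.07), miR-540-3p (0.05 and 0.23) and miR-337-5p (0.22 and 0.07). MiR-30c-2* was at 0.17 and 0.08, and miR-181a at -0.08 and -0.18. With slide as a fixed term 12 of the 27 passed, among them miR-146a (-0.80), miR-146b (-0.69), miR-149 (-0.48), miR-16 (0.46), miR-706 (0.46) and miR-805 (0.40).

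Of the 27 called miRNAs, 23 had the rigid arrays on 1 side of the compliant arrays in each treatment, the side of the call, and 8 had no overlap over all 8 arrays. Over all tested miRNAs 55 of 365 (15.1%) were apart in each treatment in 1 direction, the measure behind the 23. The share of all tested miRNAs with no overlap over all 8 arrays is not given here. The 8 therefore have no background to be read against. The same arrays made the calls, so the counts of 23 and 8 are a description. The calls of 12 of the 27 held whichever array was left out, namely miR-146a, miR-146b, miR-149, miR-222, miR-484, miR-99a, miR-16, miR-195, miR-218-2*, miR-301b, miR-706 and miR-805. The count of 27 fell to 14 without compliant TGF-beta set 2 and to 17 without rigid inhibitor set 1. In the authors' value table the split of 13 higher and 14 lower became 11 and 18. Between the 2 microenvironments the median absolute difference over the tested miRNAs was 0.07 in each treatment, and between TGF-beta and inhibitor it was 0.11 on compliant and 0.12 on rigid arrays.

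The effect of rigidity in 4T1 was set against the mean of its effects in 67NR and 4TO7, 4 rigid against 4 compliant arrays in each line, and 10 miRNAs passed the test of that difference (2.74%), 5 with a higher and 5 with a lower value in 4T1. The split was 2 and 4 under median scaling and 1 and 4 in the authors' value table, and the count was 4 without compliant inhibitor set 1 or without rigid inhibitor set 2 and 5 without rigid TGF-beta set 2. MiR-146a and miR-146b passed this test (adjusted p = 1.39e-05 and 2.33e-05), but neither was detected on any of the 8 arrays of 67NR, and they were detected on 2 and 4 of the 8 arrays of 4TO7. No call was made for either in those lines (adjusted p = 0.0860 to 0.261), and probes at background give no size of change there, so the difference between lines cannot be read as a size. MiR-149 fell by 0.49 in 4T1 and was called lower in 4TO7 (-0.17 ± 0.02), with 6 of 8 arrays detected. In 67NR it was also called lower, but it was detected there on 1 of 8 arrays, so neither that value nor the difference between lines (adjusted p = 1.39e-05) can be read as a size of change.

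MiR-16 rose in 4T1 and was at 0.32 ± 0.09 in 4TO7 (adjusted p = 0.0579) and -0.13 ± 0.09 in 67NR (adjusted p = 0.0318 for 4T1 against both). MiR-805 rose by 0.31 ± 0.05 in 4TO7 as well and was at -0.05 ± 0.05 in 67NR (adjusted p = 0.0162 for the difference). MiR-125b-5p fell in 4T1, rose by 0.26 ± 0.06 in 67NR (adjusted p = 0.012) and was at -0.06 ± 0.06 in 4TO7, and its difference between lines passed at 0.0314. These calls did not hold without each array in turn. They were lost without any of 6 of the 8 arrays for miR-16 (all but compliant inhibitor set 2 and rigid TGF-beta set 1) and for miR-125b-5p (all but set 1 of the compliant and of the rigid TGF-beta arrays), and for miR-805 without compliant inhibitor set 1, rigid inhibitor set 2 or rigid TGF-beta set 2. The call of miR-805 also missed the threshold with median scaling (adjusted p = 0.0736) and with the authors' own values (0.0857). MiR-205 was detected on no array of 4T1 or 67NR, and on 2 of the 8 arrays of 4TO7, so its call (adjusted p = 0.00873) gives no size of change. That call came from the value in 4TO7 (-0.59), as miR-205 was at 0.05 in 4T1.

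Of the 27 miRNAs called in 4T1, 5 were also called in the same direction in 67NR, where 33 of all 365 (9.04%) were called with the sign of their 4T1 difference. In 4TO7 5 were so called, beside 9 of 365 (2.47%). The 5 in 67NR were miR-149, miR-181a, miR-431, miR-706 and miR-9, and the 5 in 4TO7 miR-148a, miR-149, miR-805, miR-9 and miR-99a. MiR-706 rose by 0.45 ± 0.04 in 67NR, close to its 0.44 in 4T1, and was at 0.08 ± 0.04 in 4TO7 (adjusted p = 0.401). MiR-431 rose by 0.43 ± 0.11 in 67NR, and miR-181a fell there by 0.32 ± 0.04. MiR-9 fell by 0.27 ± 0.05 in 67NR and by 0.28 ± 0.05 in 4TO7. MiR-99a fell by 0.16 ± 0.04 in 4TO7. Of the 27 called in 4T1, 16 had the same sign in 67NR, beside 59.2% of all tested, and 24 in 4TO7, beside 68.2%. The lines were measured on separate arrays.

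**Figure D4:**
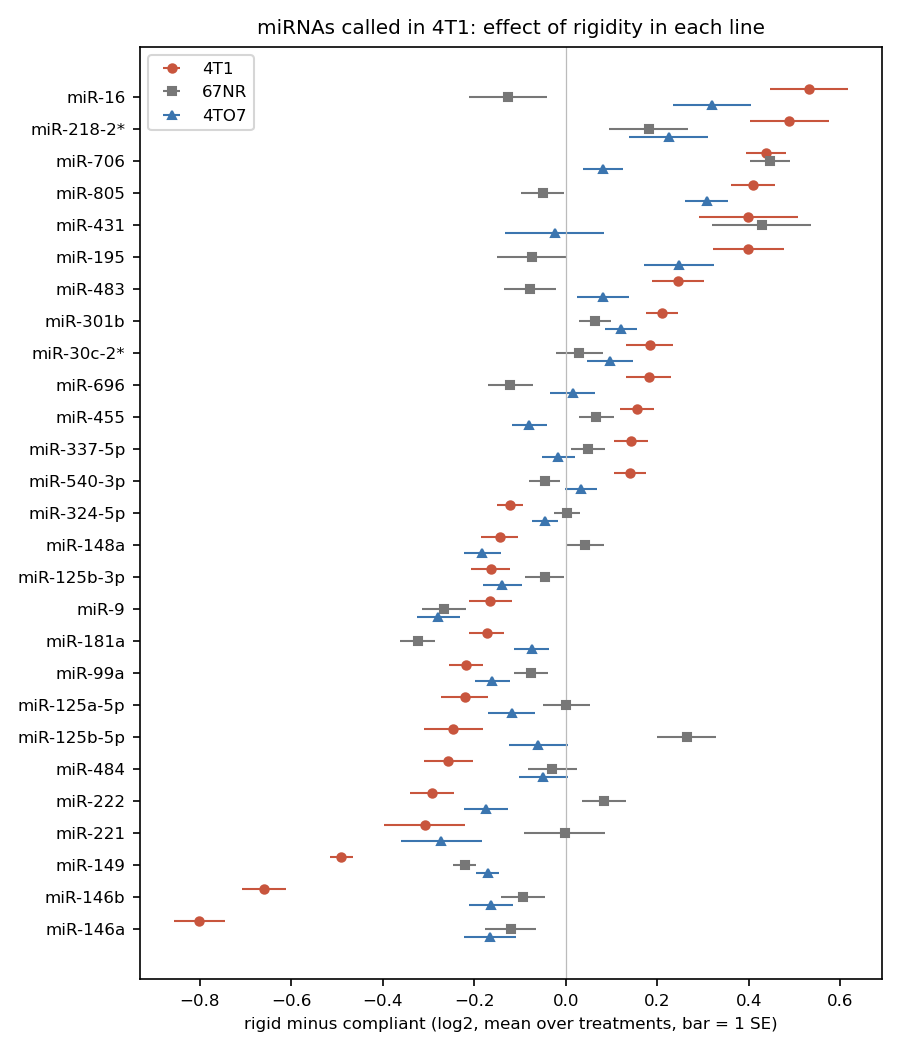
Difference between rigid and compliant arrays (horizontal axis, log2, mean over both treatments, bars 1 SE) in 4T1 (red circles), 67NR (grey squares) and 4TO7 (blue triangles) for the 27 miRNAs called in 4T1, ordered by their value in 4T1. MiR-146a and miR-146b reach -0.80 and -0.66 in 4T1 and lie between -0.17 and -0.09 in the other lines, where they were at or near background, while miR-706 is at 0.44 in 4T1 and 0.45 in 67NR.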

How the data were processed

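Total RNA of 24 samples was measured on 2-dye miRNA arrays of 593 probes (558 for mouse miRNAs). Per the file headers and the deposited description of the columns, the intensity of a probe is the sample signal in DY649 relative to a synthetic reference in DY547, background-subtracted by the authors and not normalized between arrays. A detection p-value and a fail code per probe are deposited too. The log2 intensity in the value table that the authors deposited (338 probes) equals log2 of the file's intensity plus 1 constant per array (-0.287 to 0.236); how those constants were set is not given here.

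Here limma 3.58.1 (R 4.3.3) was used to quantile normalize log2 intensities. Probes detected on both arrays of at least 1 of 12 groups were kept unless the fail code was set on 12 or more arrays, which dropped 10 and left 365. A linear model of 12 group means on all 24 arrays (12 residual degrees of freedom), eBayes with a trend, and Benjamini-Hochberg adjustment over the 365 gave 2-sided p-values. An adjusted p under 0.05 counted as called, and rose and fell are used of such calls. Per comparison the 10 largest rises and falls among the called were named, for differences of effects the 6 smallest p, and for lists the smallest p. The fit was tested on simulated data. Alternatives were other scalings, filters, blocks, weights and each array left out. Mature sequences of 31 of the 34 miRNA names looked up came from RefSeq, after their older names were matched by hand to current strands. None was found for miR-805, miR-696 and miR-301b. The miRNAs and lists, and the comparison itself, were chosen with earlier results of these data known.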

Additional observations from a re-analysis of the deposited data

Results flagged for a closer look

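The effect of rigidity differed between 4T1 and the mean of the 2 sister lines for 10 miRNAs, by the test of the difference itself in limma, each over 8 arrays per line. Given as the effect in 4T1 minus that mean on the log2 scale, the differences were -0.657 for miR-146a, -0.531 for miR-146b, -0.295 for miR-149, -0.347 for miR-125b-5p and -0.248 for miR-222. They were 0.436 for miR-16, 0.345 for miR-205, 0.281 for miR-805, 0.235 for miR-696 and 0.233 for miR-542-3p. MiR-222 was at 0.08 in 67NR and -0.17 in 4TO7 (adjusted p of the difference 0.0318), miR-696 at -0.12 and 0.01 (0.0487), and miR-542-3p at -0.21 and -0.06 (0.0318) beside 0.10 in 4T1. MiR-205 was detected on no array of 4T1 or 67NR, miR-146a and miR-146b on none of 67NR, and miR-149 on 1 of 8 of 67NR, so the differences of these 4 include probes at background and are not sizes of change. The calls of miR-146a, miR-146b and miR-149 held without each 4T1 array in turn. The call of miR-205 held as well, but its difference came from 4TO7 (-0.59, beside 0.05 in 4T1). Leaving out 4T1 arrays could hardly end it and does not show that it is stable. That of miR-222 was lost without any of 5 arrays (compliant inhibitor set 1 and set 2, rigid inhibitor set 2, compliant TGF-beta set 1 and rigid TGF-beta set 2), that of miR-542-3p without any of 4 (compliant inhibitor set 1, rigid inhibitor set 2, compliant TGF-beta set 1 and rigid TGF-beta set 2), and that of miR-696 without any of 7 (all but compliant TGF-beta set 1). Under median scaling the calls of miR-222, miR-696, miR-542-3p and miR-805 were lost (adjusted p = 0.0577, 0.276, 0.0736 and 0.0736).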

How the results depend on the processing

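Across 20 alternatives (the comparison with other lines cannot be made on the 8 arrays alone) no value changed sign among the 73 pairs of a comparison and a miRNA that was called in it or had one of its smallest p. This did not cover list members that were not called, such as the miR-23 probe. Of 27 called miRNAs 9 were called under each alternative that gave them a value, namely miR-146a, miR-146b, miR-149, miR-16, miR-195, miR-301b, miR-706, miR-805 and miR-99a. The count of 27 became 12 with slide as a fixed block and 10 when the 8 arrays of 4T1 were fitted alone, and ran from 14 to 28 when single arrays were left out. With the inhibitor the count of 14 became 8 with the median of probes detected throughout, 9 in the authors' value table, 7 with the 8 arrays alone and 7 with array weights, and 7 to 12 with single arrays left out. With TGF-beta the count of 16 became 9 without the detection filter, 8 with slide as a fixed block, 7 with the 8 arrays alone and 8 with array weights, and 7 to 16 with single arrays left out. The difference between treatments had 0 calls, 3 under median scaling and 0 to 3 with single arrays left out. Against the other lines the count of 10 became 6 under median scaling, 5 in the authors' value table, 4 with slide as a fixed block and 6 with array weights, and 4 to 11 with single arrays left out. The cause of these changes was not tested. Fits on fewer arrays have fewer residual degrees of freedom, and whether this accounts for any change in a count was not tested either. With the set number as a replicate block the count was 30, 26 of them shared with the 27, and no other count moved by over 1.5 times. The block ended the calls of miR-221 (adjusted p = 0.065) and, with the inhibitor, of miR-483 (0.0502) and miR-337-5p (0.0539). Deviations from the group means of same-numbered rigid and compliant arrays correlated at 0.23 with the inhibitor and 0.49 with TGF-beta. The labels do not say that a set number marks a shared batch, and there are only 2 numbers, so the block was not made the reported fit. Differences of probes near background (miR-148a and miR-128 in 4T1, miR-146a, miR-146b and miR-149 in 67NR, miR-146a and miR-146b on part of the 4TO7 arrays, and miR-205) cannot be read as folds.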
